A study of Mus musculus with 2 samples.

Results

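The Fto and Irx locus of mouse chromosome 8 was described from lists of ATAC-seq peaks, in which a transposase inserts adapters into open DNA, in differentiated adipose progenitors. It was taken as the span of 5 neighbouring genes, Rpgrip1l, Fto, Irx3, Irx5 and Irx6, with 100 kb on either side, a region of 1.66 Mb (chromosome 8, 91117030 to 92780956, mm10). A peak belonged to it when its centre lay there, which held for 19 of 22485 listed peaks. The 2 groups, CD137+ and PDGFRα+ adipocyte progenitors, came from C57BL/6 mouse adipose tissue, labelled SAT or VAT, and had 1 library each. Both were sorted with magnetic beads, given an adipogenic cocktail and exposed to dexamethasone, a glucocorticoid, at 1 µM. A depot is assigned to neither group, and no cells without dexamethasone were analysed here, so the effect of the drug, which both groups received, was not measured, and cell type and depot cannot be told apart. Each library has a list of peaks its authors call unique, 14483 for CD137+ and 8002 for PDGFRα+, with coordinates, an Ensembl ID and a place class. Neither heights nor reads are listed, and depth is unknown. A site open in both groups would be missing from either list, and so would a site closed in both.

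Of 6 markers of adipose progenitors, 2 had a peak in each list, namely Cd34 and Dpp4 in the CD137+ list and Ly6a and Dlk1 in the PDGFRα+ list. Tnfrsf9, the gene of CD137, had no CD137+ peak and 1 PDGFRα+ peak in or within 5 kb, and Pdgfra and Pdgfrb had none in either list. Adipocyte markers had 4 CD137+ peaks and 1 PDGFRα+ peak at 3 of 5 genes. Endothelial markers had 0 and 5 peaks, at 2 of 4 genes. Immune markers had 0 and 2, at 2 of 3, and mesothelial markers 0 and 2, at 1 of 3. Early embryo markers had 6 and 0, at 2 of 4 genes, with 5 of the 6 at Esrrb. Over all coding genes, 21.3% had a CD137+ peak in or within 5 kb and 16.5% a PDGFRα+ peak. These genes were not matched to the markers in length. The extraction text of the labels describes embryos and the zona pellucida, which does not match the adipose source named elsewhere in them. The part of other cell types in the results below was not tested.

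Fto encodes an oxygenase that removes methyl groups from RNA, among them those of N6-methyladenosine (m6A). In humans, common variants in introns of FTO are associated with body mass index, and the stretch that holds them contacts IRX3 and IRX5, homeobox transcription factor genes that restrain thermogenic gene expression in adipocyte progenitors. Rpgrip1l encodes a protein of the transition zone at the base of the primary cilium. Irx6 is the third gene of this Iroquois cluster.

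Fto and Rpgrip1l are transcribed away from each other from start sites 303 bp apart, and neither list had a unique peak there. The RefSeq promoter windows, 250 bases before to 50 bases after the start site (GRCm38.p6), are shown because these longest members carried 10 of the 19 peaks but none at their common promoter. Capitals mark the 198 bases that both windows share, read on opposite strands. The windows are chr8:91313275-91313574 on the plus strand for Fto and chr8:91313173-91313472 on the minus strand for Rpgrip1l.
Fto: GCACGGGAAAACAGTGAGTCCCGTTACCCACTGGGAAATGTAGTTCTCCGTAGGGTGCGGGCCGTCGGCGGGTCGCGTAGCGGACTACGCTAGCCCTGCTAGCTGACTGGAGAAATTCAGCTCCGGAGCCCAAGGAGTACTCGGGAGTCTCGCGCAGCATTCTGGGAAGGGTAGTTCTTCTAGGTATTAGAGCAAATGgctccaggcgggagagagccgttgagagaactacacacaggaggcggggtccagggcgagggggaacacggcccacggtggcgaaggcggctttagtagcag
Rpgrip1l: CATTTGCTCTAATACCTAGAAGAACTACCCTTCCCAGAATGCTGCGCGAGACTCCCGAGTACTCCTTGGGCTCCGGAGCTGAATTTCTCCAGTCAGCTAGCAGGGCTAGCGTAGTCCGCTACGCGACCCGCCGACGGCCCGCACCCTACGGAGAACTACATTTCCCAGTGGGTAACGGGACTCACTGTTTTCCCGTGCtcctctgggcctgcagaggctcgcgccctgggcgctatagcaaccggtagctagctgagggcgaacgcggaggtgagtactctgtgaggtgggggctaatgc
The GC content was 60.7% in the Fto window and 60.0% in the Rpgrip1l window, against a median of 56.3% over all promoter windows of protein-coding genes. The nearest CD137+ peak began 15.8 kb into Fto from its start site, and the nearest PDGFRα+ peak lay 174 kb away. Windows were found for 3 of the 5 members. Searched on both strands, the Fto, Rpgrip1l and Irx3 windows held no AGAACA, the core bound by the glucocorticoid receptor, no TEAD motif GGAATG, no AP-1 motif TGANTCA and no AATATT, the core bound by ARID5B. Of 21263 promoter windows of coding genes, 16.2% held the first, 13.6% the second, 6.99% the third and 6.00% the fourth.

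Of the 19 peaks of the locus, 16 were in the CD137+ list and 3 in the PDGFRα+ list. The CD137+ share was 84.2% (exact 95% interval 60.4 to 96.6%), against 64.4% of all listed peaks, a value inside that interval. All intervals cover counting error only, and no p-value is given, because neither group was replicated. No peak of the locus overlapped a peak of the other list, and the closest pair of opposite peaks lay 6.10 kb apart. Along the chromosome, the first 6 peaks were CD137+, the lists changed 6 times, and no PDGFRα+ peak stood beside another.

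**Figure D1:**
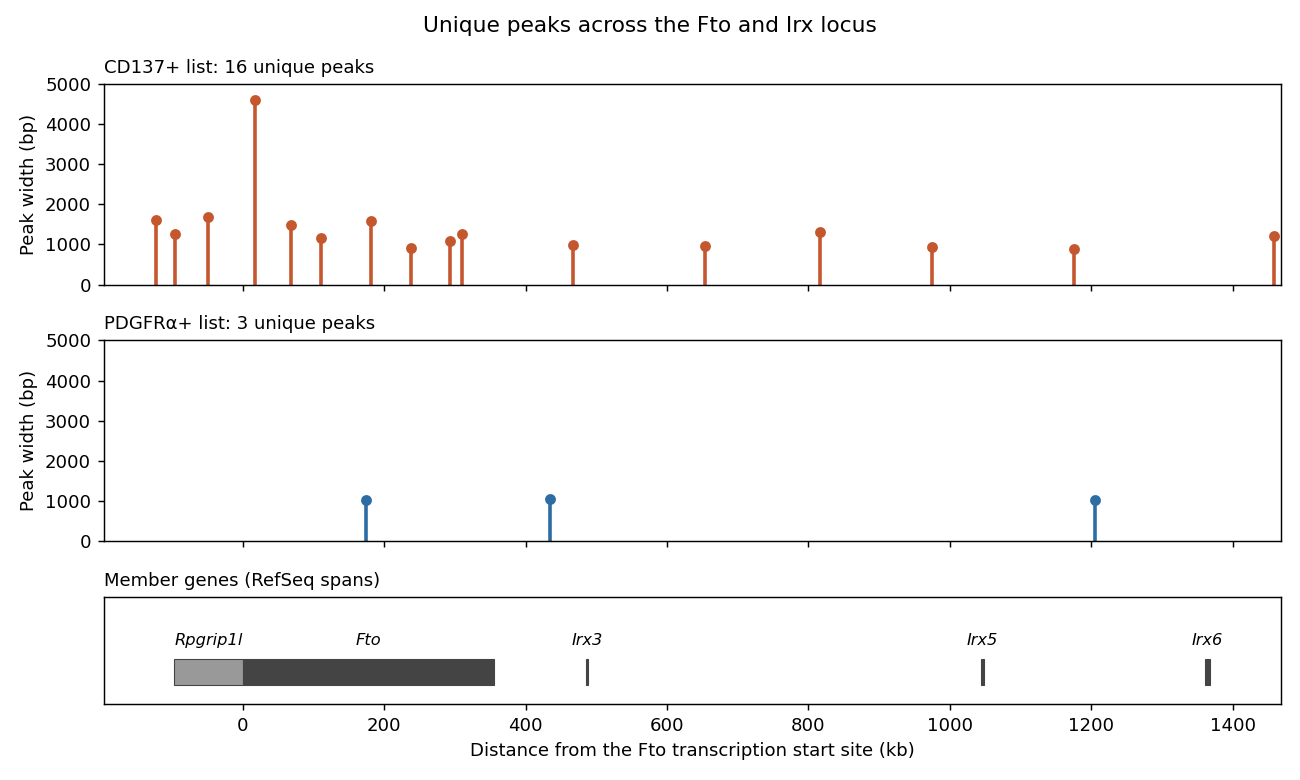
Unique peaks of the locus by list, with the distance of the peak centre from the Fto start site on the x axis (kb) and the peak width on the y axis (bp), above the RefSeq spans of the member genes. Of the 16 CD137+ peaks, 9 lie in Rpgrip1l or Fto, among them the widest, 4604 bp, and 7 lie outside the member genes, while the 3 PDGFRα+ peaks are 1021 to 1049 bp wide.

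Fto (91313367 to 91668433, 355 kb) held 7 CD137+ peaks and 1 PDGFRα+ peak, all of them under ENSMUSG00000055932. The CD137+ peaks were all classed intron and were spread over most of the gene, with centres 18.1, 68.5, 111, 182, 239, 294 and 311 kb downstream of the start site. The first, at 91329277 to 91333881, was 4604 bp wide, and only 28 of 14483 CD137+ peaks (0.193%) were as wide. The other 6 intronic peaks were 907 to 1594 bp wide. In order along the gene they lay at 91381253 to 91382746, 91424272 to 91425437, 91494678 to 91496272, 91551658 to 91552565, 91606642 to 91607725 and 91623540 to 91624806. Adjacent CD137+ peaks in Fto were thus separated by 15.8 to 69.2 kb.

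The single PDGFRα+ peak in Fto, at 91487559 to 91488580, was classed exon and was 1021 bp wide, a width that 77.1% of PDGFRα+ peaks reached. It lay 174.5 kb downstream of the start site and 6.10 kb before the CD137+ peak at 91494678. These were the closest opposite peaks of the locus. The CD137+ share in Fto was 87.5% (exact interval 47.3 to 99.7%), and the 64.4% of all peaks again lay inside the interval.

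Rpgrip1l (91217030 to 91313291, 96.3 kb, minus strand) had 2 CD137+ peaks and no PDGFRα+ peak, both under ENSMUSG00000033282. The intronic peak at 91263881 to 91265576 was 1695 bp wide, the second widest of the locus, with its centre 48.5 kb downstream of the start site. The other, at 91216631 to 91217887, was classed up5k but lay at the 3′ end of the gene, 96.0 kb downstream of the start site. It also lay in the long noncoding RNA gene Gm36243, the only one of 13 such genes in the locus with a unique peak in its span. A further CD137+ peak at 91190141 to 91191756, intergenic and 1615 bp wide, lay 25.3 kb beyond that end. The nearest PDGFRα+ peak to Rpgrip1l was 174 kb away, inside Fto. The other coding genes that reach into the locus, Aktip and the retinoblastoma family gene Rbl2, had no unique peak in their spans. Their nearest CD137+ peaks were 54.6 kb from Aktip and 66.3 kb from Rbl2.

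The class of the peak at the 3′ end of Rpgrip1l prompted a check of the classes against gene strand over both lists. Peaks within 5 kb of exactly 1 end of a protein-coding gene were used, with strands from the RefSeq promoter table. Of up5k peaks at plus-strand genes, 84.1% of 415 (Wilson 95% interval 80.3 to 87.3%) lay at the 5′ end. At minus-strand genes only 20.1% of 358 (16.3 to 24.6%) did. The class down5k was the reverse, with 92.4% of 354 peaks (89.1 to 94.7%) at the 5′ end of minus-strand genes and 6.47% of 278 (4.13 to 10%) at that of plus-strand genes. Among the peaks checked, the deposited classes up5k and down5k thus mostly followed the lower and higher coordinate of a gene, not its transcription. The check covered only part of the classed peaks. In all, 1251 CD137+ and 885 PDGFRα+ peaks were classed up5k, and 1045 and 606 were classed down5k. The classes therefore cannot be read as promoter and 3′ flank.

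**Figure D2:**
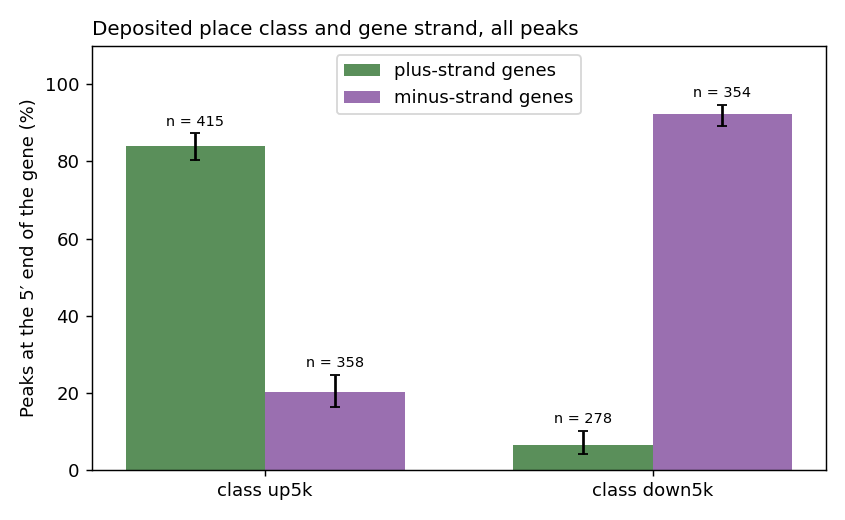
Share of peaks at the 5′ end of the gene (%, y axis) for the deposited classes up5k and down5k, by gene strand, over both lists, with Wilson 95% intervals as error bars. The bars for plus-strand and minus-strand genes are opposite in the 2 classes, 84.1% and 20.1% for up5k and 6.47% and 92.4% for down5k.

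None of the Irx genes had a unique peak in its span or within 5 kb. In that range, 21.3% of coding genes of any length had a CD137+ peak and 16.5% a PDGFRα+ peak. Of the Irx genes, Irx3 (91798511 to 91801654, minus strand) was nearest to a unique peak. This was a CD137+ peak at 91780348 to 91781325, 977 bp wide and 17.2 kb from the 3′ end of Irx3. A PDGFRα+ peak at 91746944 to 91747993, 1049 bp wide, lay 50.5 kb from the gene on the same side, between Fto and Irx3. Both were classed intergenic, 32.4 kb apart, and neither touched a noncoding gene. The antisense gene Irx3os had no unique peak, and its nearest was the same CD137+ peak, 22.0 kb away.

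The 556 kb between Irx3 and Irx5 held 3 CD137+ peaks and no PDGFRα+ peak. They lay at 91966880 to 91967839 (959 bp wide), 92129085 to 92130406 (1321 bp) and 92287079 to 92288021 (942 bp), all intergenic. The last was the nearest to Irx5 (92357796 to 92361456), at 69.8 kb, and lay 38.01 kb from Crnde, the noncoding gene beside Irx5. The nearest PDGFRα+ peak to Irx5 was 157 kb away. Neighbouring CD137+ peaks of this stretch were 157 to 161 kb apart, farther than any neighbours in Fto.

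The 313 kb between Irx5 and Irx6 held 1 peak of each list, a CD137+ peak at 92488368 to 92489256, 888 bp wide and the narrowest of the locus, and a PDGFRα+ peak at 92518074 to 92519100, 1026 bp wide. They were 28.8 kb apart and both intergenic. Irx6 (92674289 to 92680956) lay in the longest stretch between neighbouring peaks of the locus, 253 kb, which ended at the CD137+ peak at 92771870 to 92773070. That peak was 1200 bp wide and 90.9 kb from Irx6. Its centre was 8.49 kb inside the border of the locus, and the nearest peak left out was a PDGFRα+ peak 3.34 kb beyond it, at 92783638 to 92784960, 1322 bp wide and 103 kb from Irx6.

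Counted per gene, 2 of the 5 members had a CD137+ peak in their span and 1 had a PDGFRα+ peak, against 17.3% and 13.2% of 21900 protein-coding genes. Within 100 kb, all 5 had a CD137+ peak, against 66.7% of coding genes, and 2 had a PDGFRα+ peak, against 56.0%. The members are neighbours and share peaks within 100 kb, so these counts are not independent. The coding genes were not matched to them in length. The CD137+ peaks within 100 kb numbered 9 for Fto, 5 for Rpgrip1l and 1 for each of Irx3, Irx5 and Irx6. Of PDGFRα+ peaks, Fto had 2 and Irx3 had 1.

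The locus was set beside the rest of the chromosome. It had 0.962 CD137+ peaks per 100 kb (exact Poisson 95% interval 0.550 to 1.56), against 0.565 on chromosome 8 outside it, a ratio of 1.70 (0.972 to 2.76, with the chromosome taken as fixed). It had 0.180 PDGFRα+ peaks per 100 kb (0.0372 to 0.527), against 0.309, a ratio of 0.584 (0.121 to 1.71). Both ratio intervals include equal density. Against all chromosomes, the CD137+ ratio was 1.76 (1.01 to 2.86), an interval just above equal density, and the PDGFRα+ ratio was 0.597 (0.123 to 1.74). Intergenic peaks made up 47.4% of the locus (Wilson interval 27.3 to 68.3%) and 43.0% of all listed peaks. The median CD137+ width was 1228 bp in the locus and 1221 bp in the whole list, and all 3 PDGFRα+ peaks of the locus were narrower than their list's median of 1237 bp.

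**Figure D3:**
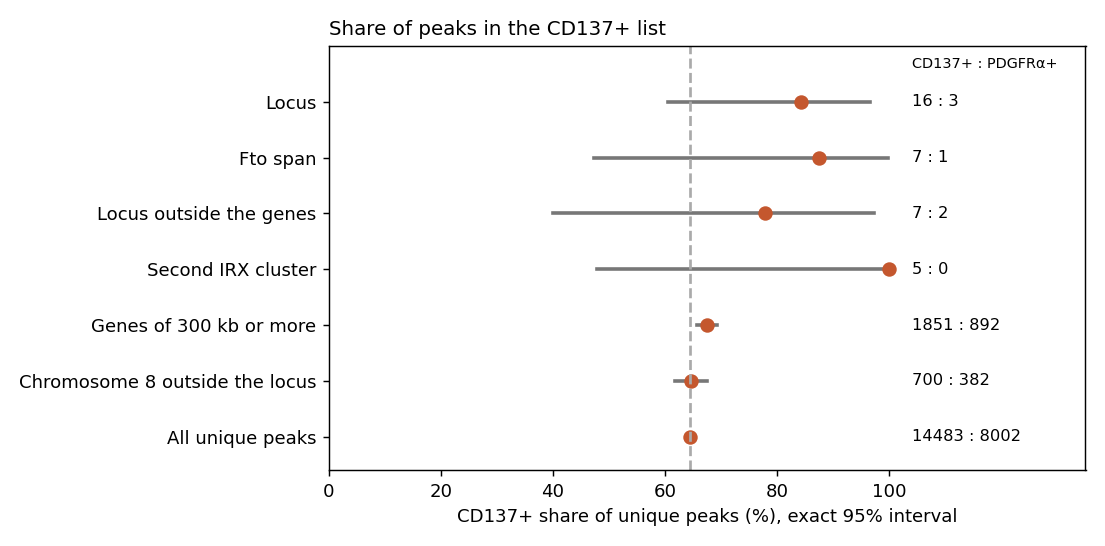
CD137+ share of unique peaks (%, x axis) with exact 95% intervals as lines for the locus, its parts and comparison sets, and the numbers of CD137+ and PDGFRα+ peaks at the right. The dashed line is the 64.4% of all peaks, which lies inside the intervals of the locus (84.2%), of Fto (87.5%), of the locus outside the genes (77.8%) and of the second IRX cluster (100%). It lies below the interval of the genes of 300 kb or more (67.5%, 65.7 to 69.2%).

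Within the locus, Fto had 1.97 CD137+ peaks (0.793 to 4.06) and 0.282 PDGFRα+ peaks per 100 kb. Rpgrip1l had 2.08 (0.252 to 7.51) and 0, with the peak across its 3′ end counted in. Outside the member genes the densities were 0.584 (0.235 to 1.20) and 0.167, with 7 CD137+ and 2 PDGFRα+ peaks. The CD137+ intervals of these stretches overlap. Over the 557 coding genes of 300 kb or more, counted as pairs of gene and peak, the densities were 0.580 and 0.280. The interval of Fto lay above the CD137+ density of these genes, and its PDGFRα+ value rests on 1 peak. Of those 557 genes, 68 had at least 7 CD137+ peaks (12.2%). Of the 204 other genes of 300 to 400 kb, 5 did, namely Fmn1, Dlc1, Gse1, Arid1b and Ltbp1, and the median was 2 CD137+ peaks and 1 PDGFRα+ peak. Exactly the counts of Fto, 7 and 1, were found at 8 other genes, a match over the 2 libraries that was looked for after the values were seen. They were Rabgap1l, Fmn1, Thsd7a, Dgki, Ctnna2, Magi1, Bmper and Zfp521.

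**Figure D4:**
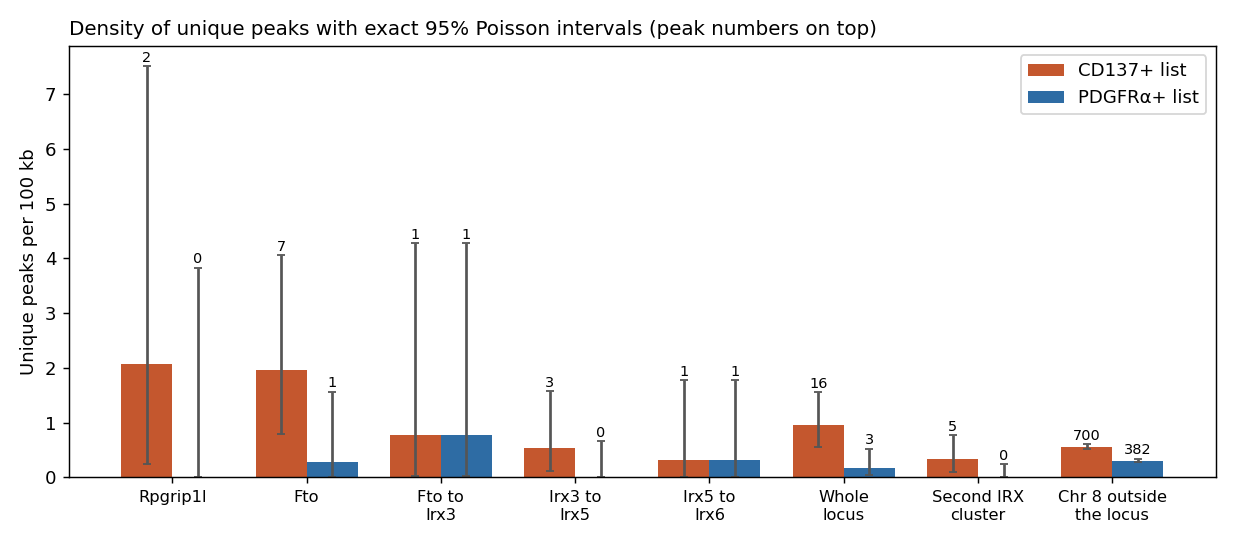
Unique peaks per 100 kb (y axis) in the CD137+ list and in the PDGFRα+ list for stretches of the locus in chromosomal order, the whole locus, the second IRX cluster and chromosome 8 outside the locus, with exact 95% Poisson intervals as error bars and peak numbers above them. The CD137+ bars are highest over Rpgrip1l (2.08) and Fto (1.97) but the intervals of the stretches are wide, resting on 0 to 7 peaks, and overlap.

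The second IRX cluster of the mouse genome, with Irx1, Irx2 and Irx4 on chromosome 13, was measured by the same rule (71858232 to 73369622, 1.51 Mb). It had 5 CD137+ peaks and no PDGFRα+ peak, or 0.331 CD137+ peaks per 100 kb (0.107 to 0.772). The PDGFRα+ density had an upper bound of 0.244 (exact Poisson). A CD137+ peak of 2662 bp at 71962123 to 71964785, classed down5k, lay across an end of Irx1, whereas no peak of the chromosome 8 cluster touched an Irx gene. The other 4 peaks were intergenic and at least 71.0 kb from the nearest Irx gene. The intervals of the CD137+ densities of both clusters overlap.

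Among genes that act with the members, counted in or within 5 kb of each gene, Fto supplied most CD137+ peaks of its pathway. The 20 genes of the m6A machinery had 12 CD137+ and 7 PDGFRα+ peaks, and without Fto 5 and 6, a CD137+ share of 45.5% (16.7 to 76.6%). Of these 19 genes, 4 had a CD137+ peak (21.1%, against 21.3% of coding genes) and 6 a PDGFRα+ peak (31.6%, against 16.5%). Among m6A readers, Igf2bp2 had 2 CD137+ peaks and 1 PDGFRα+ peak, Igf2bp1, Igf2bp3 and Ythdf2 had 1 and 0 each, and Ythdc1 had 0 and 1. The methyltransferase gene Mettl16 and the methyltransferase complex genes Virma, Rbm15 and Rbm15b had 0 and 1 each. The medians were 0 peaks in both lists, as over all coding genes.

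The other 17 ciliary transition zone genes had 1 CD137+ peak and 2 PDGFRα+ peaks, at Nphp4 (1 and 0), Cep290 (0 and 1) and Invs (0 and 1). Of these 17 genes, 5.88% had a CD137+ peak, against 21.3% of coding genes, and 11.8% a PDGFRα+ peak, against 16.5%. Rpgrip1l, with 2 CD137+ peaks, had more unique peaks than any other gene of this list. For regulators of thermogenic genes, 9 of 16 had a unique peak, 23 CD137+ and 12 PDGFRα+ in all, and the CD137+ share was 65.7% (47.8 to 80.9%). Of these 16 genes, 43.8% had a CD137+ peak, against 21.3% of coding genes, and 43.8% a PDGFRα+ peak, against 16.5%. Here and for the other gene lists, the coding genes were not matched for length, and a longer span has more room for peaks. The highest numbers were at Esrrg (5 and 2, 606376 bp long), Ebf2 (6 and 0, 197661 bp) and Ppargc1a (4 and 2, 661605 bp). Arid5b, whose human counterpart binds an intron of FTO, had 2 and 2, as did Prdm16. The 17 other genes chosen for their names at human body mass index loci together had 28 and 12 peaks, with a CD137+ peak at 47.1% of the genes and a PDGFRα+ peak at 47.1%, against the same 21.3% and 16.5%. Of these peaks, the CD137+ share was 70% (53.5 to 83.4%). The genes with the most peaks were the long adhesion and synapse genes Cadm2 (9 and 1), Nrxn3 (5 and 3) and Lingo2 (3 and 2). The 64.4% of all peaks lay inside the intervals of these lists.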

How the data were processed

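Both files are the authors' deposited lists of ATAC-seq peaks and hold coordinates, an Ensembl ID and a place class per peak, per the file headers, with no count, signal or score. Per the submitters' processing notes, CASAVA 1.8 and mm10 are named, with no role given. The sources used here do not state how reads were aligned, how peaks were called or what made them unique. Depth and threshold can change the length of a list. Starts are printed as deposited. Gene spans and promoter windows came from RefSeq tables of GRCm38.p6, which is mm10. Chromosome lengths were taken from the first to the last listed peak.

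Peaks were placed by their centre. Shares carry exact binomial or Wilson intervals and densities exact Poisson intervals, at 95%. All peaks of the locus and the coding genes in it were named, and up to 4 genes of each list were named, by their number of peaks. Ties and the genes named beyond that rule were chosen after their values were seen. The members, gene lists and markers were chosen with earlier results of these data known. Alternatives covered the window, widths, merging and overlap distances. Assignment to genes was tested on simulated data. The tools were pandas 2.3.3, numpy 2.4.6, matplotlib 3.10.9 and scipy 1.17.1 in Python 3.11.15.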

Additional observations from a re-analysis of the deposited data

How the results depend on the processing

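No paired analysis was possible because each group has a single library, so none could be left out either. The CD137+ share of the locus, of Fto and of the locus outside Fto was above the 64.4% of all peaks in all 18 settings run. These settings are not independent, because Fto and the rest are parts of the locus. Counting any overlapping base or merging peaks within 1 kb returned the peaks as reported. For Fto, so did the span with 5 kb added and the Ensembl ID. Such settings say nothing more about the direction. Among peaks wider than their list's median, all 3 shares were 100%, with 8 CD137+ and 0 PDGFRα+ peaks in the locus. There the PDGFRα+ density was 0 relative to all chromosomes, and the intergenic share was 25%. In another setting, the CD137+ list was cut to its widest 8002 peaks and the PDGFRα+ list, of 8002, was kept whole. The locus then had 9 CD137+ peaks and the share was 75%, where 50% of all peaks are then CD137+. The CD137+ density relative to all chromosomes was 1.75 to 1.86 over the alternatives, with an interval above equal density as reported and with the 200 kb window (1.12 to 2.91), and including it in the others. With a window of 200 kb, it had 5 PDGFRα+ peaks and the share was 79.2%. The cut by width took fewer peaks and the wider window more sequence by construction. Of the alternative values, 38 stayed and 9 moved. A count stayed if it was within 1.5 times of the value as reported. A share, density or width stayed if it was within the interval of that value. Depth is unknown and was not equalised.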

Other observations

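The sequence on either side of the locus differed in its unique peaks, a comparison chosen after the values were seen. In the 200 kb before it, which reach into Chd9 and Rbl2, neither list had a peak. In the 200 kb after it, the CD137+ list had 3 peaks and the PDGFRα+ list had 6. Chromosome 8 outside the locus had 0.565 CD137+ and 0.309 PDGFRα+ peaks per 100 kb, so few peaks fall in a stretch of this length. No interval was computed for the flanks. A CD137+ peak at 92834238 to 92835967, 1729 bp wide, lay in Mmp2, which encodes a matrix metalloproteinase. Lpcat2, a lysophospholipid acyltransferase gene, held a CD137+ peak at 92866639 to 92868022 and PDGFRα+ peaks at 92883747 to 92884472 and 92906322 to 92907585. The last of these has its centre in the span of Lpcat2 but was deposited as down5k under another Ensembl ID, ENSMUSG00000078144. Slc6a2, the noradrenaline transporter gene, held PDGFRα+ peaks at 92960384 to 92961578 and 92965674 to 92966943.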
